A study of Mus musculus with 29 samples.

Results

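The 10 genes described here are the immediate early genes Fos, Fosb, Jun, Junb, Egr1, Atf3 and Ier2 and the 3 members of the NR4A family, Nr4a1, Nr4a2 and Nr4a3. They were taken as the rows of the table of read counts whose Ensembl identifiers map to these symbols, and they are 10 of the 48023 genes in that table.

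RNA was sequenced from skeletal muscle, the tibialis anterior (TA), of 29 male mice aged 2 to 3 months, labelled as C57BL/6J. Each mouse carried floxed alleles of 1 catalytic subunit of PI3-kinase, the lipid kinase that relays the insulin signal, either p110α with exon 1 flanked by loxP sites or p110β with exon 2 flanked by them. Knockouts, named M-p110αKO and M-p110βKO, also carried Cre recombinase under the human alpha-skeletal actin (HSA) promoter, which is active in muscle fibers and not in the other cells of the tissue, and controls (WT in the labels) were mice of the same floxed line without a knockout. Within each line mice were fed, or were fasted for 24 h before the muscle was taken. The p110α line gave 4 fed controls, 4 fed M-p110αKO, 4 fasted controls and 3 fasted M-p110αKO, and the p110β line gave 3 controls and 4 M-p110βKO in the fed state and the same numbers after fasting. By a genome scan the p110β line held a smaller share of C57BL/6 genome than the p110α line, so that a difference between the lines and a difference in genetic background cannot be told apart. Libraries are named below by the numbers in their labels, 1 to 29.

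Immediate early genes are transcribed within minutes of a stimulus, without new protein synthesis, because the factors that switch them on (serum response factor with its ternary complex partners, and CREB) already sit in the cell and are activated by kinases. FOS and JUN proteins pair to form AP-1, EGR1 is a zinc-finger factor, ATF3 is a stress-inducible factor of the ATF/CREB family and IER2 is a small nuclear protein. The NR4A proteins are orphan nuclear receptors that act without a known ligand in the classical sense, so that their activity follows their amount, and in muscle they are known for induction by exercise and adrenergic signals and for control of genes of glucose and fat use.

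The promoters of Fos and Nr4a3, the pair with the highest fasting response in controls of the p110β line, of Nr4a1, the 1 gene that fell with fasting in controls of the p110α line, and of Jun are shown because they differ in the elements known to bind CREB and EGR proteins. Each window runs from 250 bases before to 50 bases after the annotated start, on the strand of the gene, from RefSeq on GRCm38.p6, and windows of 8 of the 10 genes (not Egr1 or Ier2) were searched. Capitals mark the core of the cyclic AMP response element (CRE), TGACG or its reverse complement CGTCA, and the EGR site GCGNGGGCG or its reverse complement, searched on both strands. The windows are chr12:85473640-85473939 on the plus strand for Fos, chr4:95052173-95052472 on the minus strand for Jun, chr15:101266596-101266895 on the plus strand for Nr4a1 and chr4:48045055-48045354 on the plus strand for Nr4a3.
Fos: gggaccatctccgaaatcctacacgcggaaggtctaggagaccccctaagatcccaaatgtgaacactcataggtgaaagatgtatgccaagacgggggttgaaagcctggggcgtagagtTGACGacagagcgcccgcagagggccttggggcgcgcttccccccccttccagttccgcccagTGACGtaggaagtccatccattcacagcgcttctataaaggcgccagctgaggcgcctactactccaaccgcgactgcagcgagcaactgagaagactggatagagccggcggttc
Jun: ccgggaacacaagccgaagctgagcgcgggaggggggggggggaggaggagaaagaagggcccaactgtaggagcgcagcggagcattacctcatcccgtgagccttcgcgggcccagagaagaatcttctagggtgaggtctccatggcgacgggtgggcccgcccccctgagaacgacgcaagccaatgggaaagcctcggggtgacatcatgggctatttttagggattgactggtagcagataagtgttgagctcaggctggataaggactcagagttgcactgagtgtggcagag
Nr4a1: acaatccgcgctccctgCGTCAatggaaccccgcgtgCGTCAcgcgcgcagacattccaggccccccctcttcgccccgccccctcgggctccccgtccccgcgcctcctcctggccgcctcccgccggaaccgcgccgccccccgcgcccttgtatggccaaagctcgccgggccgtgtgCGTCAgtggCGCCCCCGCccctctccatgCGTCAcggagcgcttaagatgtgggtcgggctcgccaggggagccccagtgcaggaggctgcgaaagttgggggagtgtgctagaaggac
Nr4a3: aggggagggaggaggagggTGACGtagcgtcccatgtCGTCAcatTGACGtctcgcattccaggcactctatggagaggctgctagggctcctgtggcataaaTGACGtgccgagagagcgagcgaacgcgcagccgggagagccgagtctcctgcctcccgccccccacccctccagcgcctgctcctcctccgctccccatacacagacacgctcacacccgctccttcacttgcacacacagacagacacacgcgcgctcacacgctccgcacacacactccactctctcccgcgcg

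The CRE core was found in 7 of the 8 windows, all but that of Jun, against 20.8% of the 32851 promoter windows of the same table. It lay 129 and 66 bases before the start of Fos. Nr4a1 held it at 233, 213, 69 and 40 bases before the start, Nr4a2 at 200, 144, 123 and 111 bases, and Nr4a3 at 231, 213, 205 and 147 bases. Fosb, Junb and Atf3 each held a single copy, at 60, 106 and 7 bases. The EGR site was present in Fosb, Nr4a1 and Nr4a2, 3 of 8 windows against 5.55% of all windows, and no match overlapped another. The full palindrome TGACGTCA (1.79% of all windows), the AP-1 site TGANTCA (7.81%), the CArG box (1.63%) and the NR4A monomer site AAAGGTCA (1.51%) were in 0 of the 8. The 8 windows were 58.7% to 81.7% G and C, and the shares of all windows were not matched for this. The counts are therefore not read as particular to these genes. These matches describe the letters of the windows and were not tested as binding sites. Bases farther than 250 before the start, and the promoters of Egr1 and Ier2, were not searched. A count of 0 therefore does not mean that these genes lack the element.

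**Figure D1:**
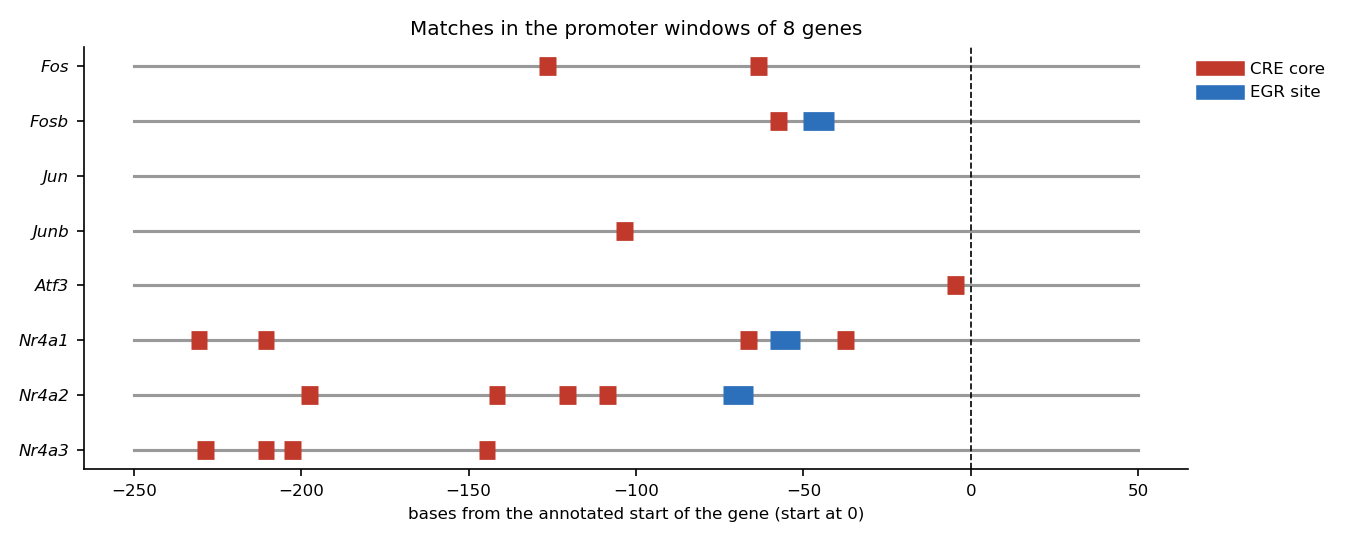
Positions of the CRE core (red) and the EGR site (blue) in the promoter windows of 8 genes, from 250 bases before to 50 bases after the annotated start; the horizontal axis is the distance from the start in bases. The 3 NR4A windows hold 4 CRE cores each and the Jun window holds neither element.

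Total reads assigned to genes ranged from 5351935 to 11653239 per library with a median of 7828636, and all 10 genes had enough reads to be tested in each fit. Levels are given as CPM, the read count divided by the library size and put on a common scale, with library sizes adjusted by the trimmed mean of M values (TMM). Mitochondrial genes took 6.99% to 12.3% of the reads of a library. In 39 pairs of libraries within a group the counts differed by more than sampling noise, with chi-square values of 3.92 to 31 per degree of freedom, so no library was counted as a copy of another. Reads counted over whole genes do not check the deletion of a single exon. Nothing in the labels names a shared batch, and separate mice are the replicates as far as the labels tell.

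In the GENCODE M21 annotation (GRCm38), Fos lies at chr12:85473890-85477273 and Nr4a3 at chr4:48045153-48086447, both on the plus strand, Nr4a1 at chr15:101254269-101274795 on the plus strand and Jun at chr4:95049034-95052222 on the minus strand. The longest transcript of Fos has 4 exons and that of Jun 1, while those of Nr4a1, Nr4a2 and Nr4a3 have 8 each. The RefSeq start used for the promoter window is the GENCODE start for Fos, Jun and Nr4a2, lies inside the GENCODE span of the gene for Fosb, Atf3, Nr4a1 and Nr4a3, and lies outside it for Junb. For Nr4a1 and Atf3 it is an internal start, far from the GENCODE start. The Nr4a1 window, chr15:101266596-101266895, belongs to a gene that starts at 101254269. The Atf3 window, chr1:191183284-191183583, belongs to a gene on the minus strand that starts at 191218039.

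Per kilobase of exon, Nr4a1 was by far the most abundant of the 10, at a mean of 100 CPM per kb over the 29 libraries and the 97.6th percentile of the genes tested. Jun followed at 28.2 CPM per kb and the 91.5th percentile. Fos, Atf3, Ier2, Nr4a3, Egr1 and Junb lay between 5.79 and 3.15 CPM per kb, at the 65.9th to the 51.1st percentile. Fosb, at 0.665 CPM per kb (17.7th percentile), and Nr4a2, at 0.529 (14th percentile), were the scarcest, with 1 to 259 reads of Fosb and 3 to 37 reads of Nr4a2 in a library, so their single values carry a large counting error. The exons of Jun overlap the antisense gene Junos over 232 bases and those of Junb overlap Prdx2 over 173 bases, and whether the counting used strand is not known.

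The genes also differed in how far they ranged. The highest library was 212 times the lowest for Fosb and 208 times for Atf3, 43.0 times for Nr4a3, 38.7 times for Fos and 29.6 times for Egr1. By contrast the ratio was 4.38 for Nr4a1, 4.16 for Ier2 and 2.58 for Jun. When the 8 groups were ordered by mean level, all 7 neighbouring pairs overlapped in their libraries for 7 of the genes. For Fos, a gap separated fasted controls of the p110α line, whose lowest library was at 8.69 CPM, from fed controls of the p110β line, whose highest was at 3.54. Nr4a3 had gaps between fed controls of the p110α line and fed M-p110βKO, and between the latter and fed controls of the p110β line. The remaining gap, for Atf3, was that between the lowest fed M-p110βKO at 1.90 CPM and the highest fed control of the p110β line at 1.81.

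**Figure D2:**
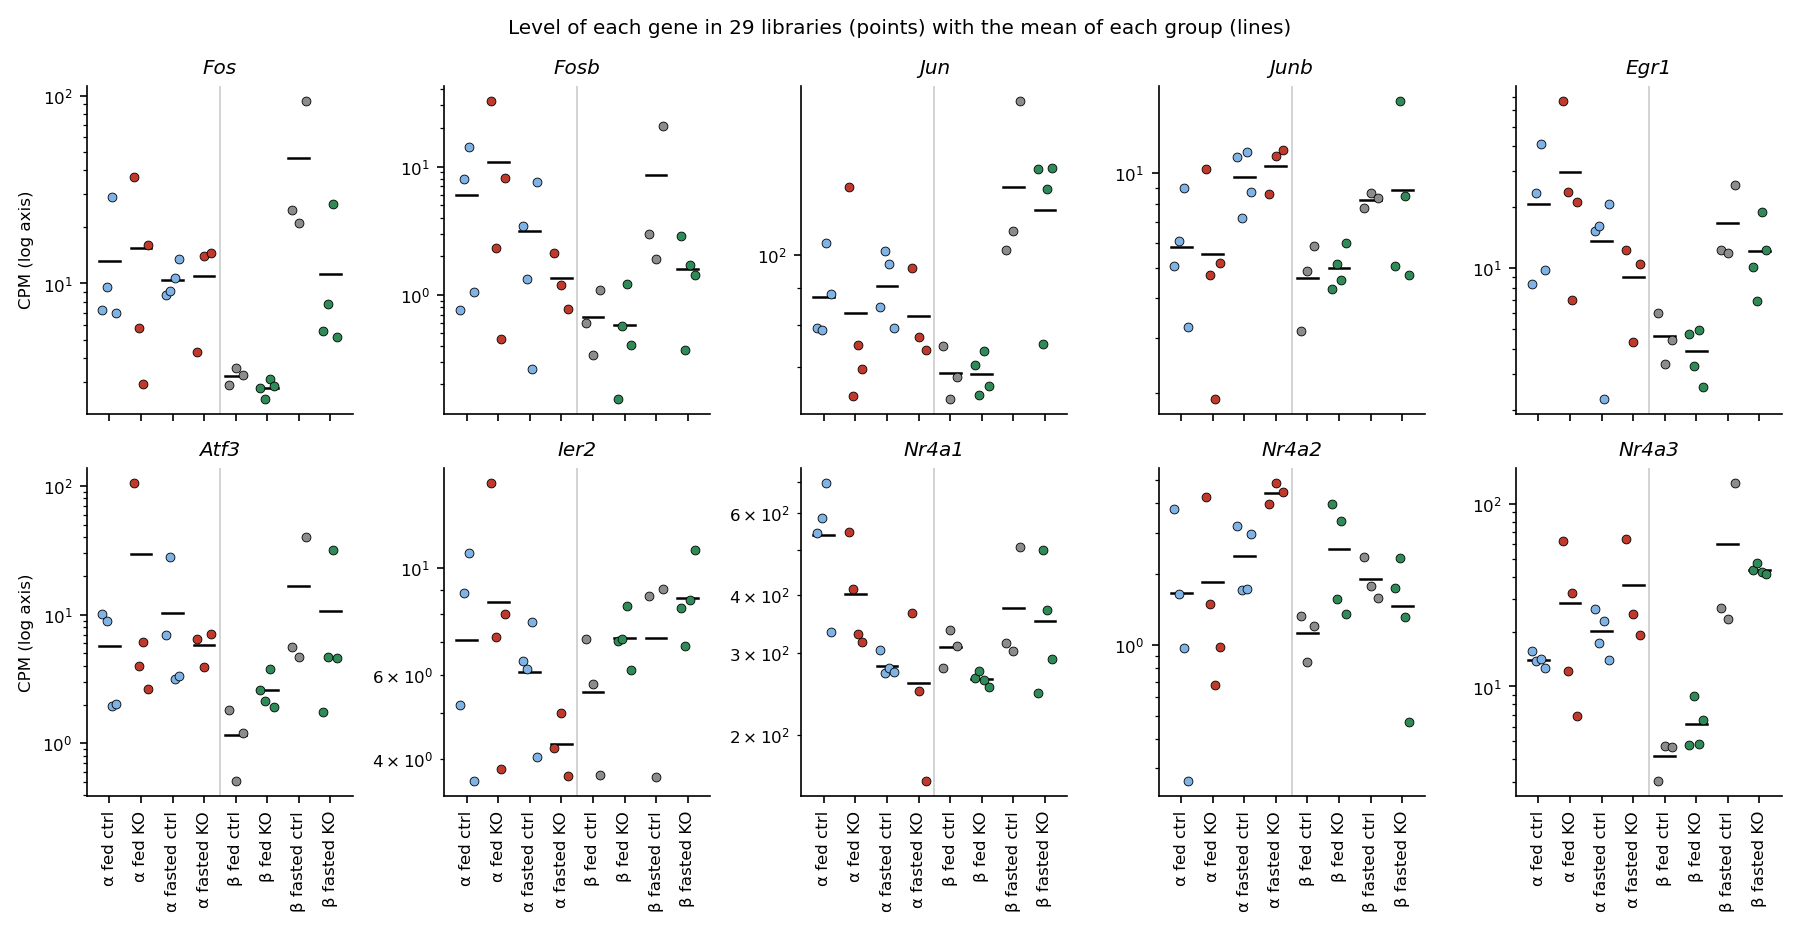
Level of each gene in CPM (log axis) in each of the 29 libraries (points) of the 8 groups of line, feeding state and genotype, with group means as horizontal lines; α and β mark the lines and ctrl the controls. Fos and Nr4a3 are low in all fed p110β libraries, Nr4a3 starts at 23.5 CPM in the fasted ones, and single libraries, such as Atf3 at 105 CPM in a fed M-p110αKO, stand far above their groups.

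The first question was how fasting changed these genes in each line. In controls of the p110β line, 6 of the 10 rose with fasting and none fell, in a comparison in which 26.9% of all genes tested passed the threshold and 14.5% passed it upward (edgeR quasi-likelihood test, Benjamini-Hochberg adjusted p under 0.05). The 6 were Fos, Fosb, Jun, Egr1, Atf3 and Nr4a3. In 8 of the 10, the 6 with Junb and Nr4a2, every fasted control lay above every fed control, against 20.4% of all genes. The median log2 fold change of the 10 was 1.35 and that of all genes was -0.02. In M-p110βKO 5 rose with fasting, namely Fos, Jun, Junb, Egr1 and Nr4a3, where 37.9% of all genes passed and 19% passed upward. Fos, Jun, Egr1 and Nr4a3 did not overlap between fed and fasted M-p110βKO, 4 of the 10 against 17.4% of all genes upward, and the medians were 1.09 for the 10 and -0.02 for all genes. DESeq2 called 5 of the 10 in controls and 4 in M-p110βKO, and limma-voom 4 and 3. The calls missing with DESeq2 were of genes that got no adjusted p there, not of genes above the threshold. Calls that ended with limma-voom were those of Fosb (adjusted p = 0.0551) and Atf3 (adjusted p = 0.0856) in controls and of Fos (adjusted p = 0.0717) and Junb (adjusted p = 0.105) in M-p110βKO, and calls that ended when all 29 libraries shared 1 fit were those of Egr1 (adjusted p = 0.0546) and Atf3 (adjusted p = 0.0521) in controls and of Junb in M-p110βKO (adjusted p = 0.0729).

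In the p110α line fasting lowered Nr4a1 in controls and moved none of the other 9 past the threshold, where 30.1% of all genes passed and 14.7% passed downward, and the median log2 fold change was -0.07 for the 10 and 0.00 for all genes. In M-p110αKO 0 of the 10 passed against 21.5% of all genes, and the median of the 10 was -0.56. At an unadjusted p under 0.05 there were 6 in that comparison, Fosb, Egr1, Ier2 and Nr4a1 with lower values and Junb and Nr4a2 with higher ones. The share of all genes at an unadjusted p is not given, here or below. Counts at that cut are therefore not read as particular to the 10. DESeq2 called 1 and limma-voom 2. Without library 5 Junb (1.40, adjusted p = 0.00872) and Nr4a2 (2.05, adjusted p = 0.0166) passed in M-p110αKO. Without library 7 Fosb (-3.32, adjusted p = 0.0496), Egr1 (-2.03, adjusted p = 0.0413) and Ier2 (-1.2, adjusted p = 0.0333) passed, and without library 13 Nr4a1 did (-0.99, adjusted p = 0.0186). The fasting responses of controls and knockouts did not differ past the threshold for any of the 10 in either line. The interaction was passed by 0.483% of all genes in the p110α line and 0.106% in the p110β line, with 1 of the 10 at an unadjusted p under 0.05 in each (Atf3 and Nr4a2) and 0 by DESeq2 or limma-voom. In edgeR with no filter beyond 1 read, more of the 10 passed in both fasting comparisons of the p110α line and in both interactions. Those counts are in the last section, without the share of all genes.

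**Figure D3:**
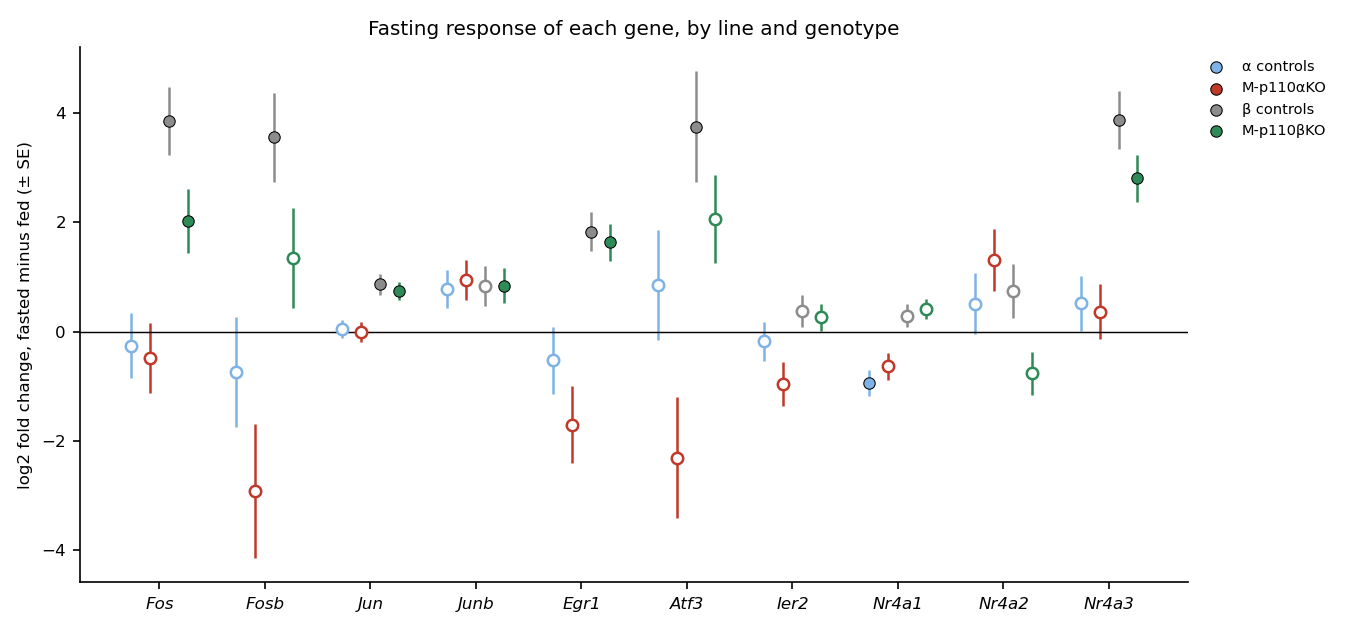
Log2 fold change of each gene from fed to fasted mice, with its SE as the bar, in controls and knockouts of both lines; filled points passed an adjusted p of 0.05 and open points did not. In controls of the p110β line Nr4a3, Fos and Atf3 lie highest, at 3.87, 3.85 and 3.75, and in the p110α line the only filled point is Nr4a1 in controls at -0.94.

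Fos, the inducible partner of JUN proteins in AP-1, rose with fasting in both genotypes of the p110β line. Fed controls of that line were at 2.90, 3.54 and 3.24 CPM and fasted controls at 24.6, 21.1 and 93.8 CPM. Every fasted control lay above all fed ones, with library 25 far above the other fasted pair. The change was 3.85 ± 0.61 on the log2 scale (SE, a 14.5-fold rise, adjusted p = 0.000158), and without library 25 it was 2.84 (adjusted p = 0.000304). Fed M-p110βKO had 2.76, 2.42, 3.10 and 2.86 CPM and fasted M-p110βKO had 5.56, 7.74, 26.4 and 5.21 CPM. These groups did not overlap either, although 3 of the fasted knockouts stayed below 8 CPM. The rise was 2.03 ± 0.59 (adjusted p = 0.0114), and it lost the call without library 28, the highest (1.17, adjusted p = 0.0864).

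Fos levels of the p110α line were more scattered. Fed controls held 7.24, 9.63, 29.0 and 6.94 CPM and fasted controls 8.69, 9.12, 10.6 and 13.4 CPM. Fed M-p110αKO spanned 37.1, 5.79, 2.93 and 16.0 CPM and fasted M-p110αKO 4.34, 14.1 and 14.5 CPM. Fed and fasted libraries overlapped in both genotypes. The log2 fold changes were -0.26 ± 0.59 in controls (adjusted p = 0.777) and -0.48 ± 0.64 in M-p110αKO (adjusted p = 0.631).

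Fosb, which encodes the FOS relative that also accumulates as a shortened stable form in some tissues, was scarce. Fed controls of the p110β line had 0.604, 0.338 and 1.08 CPM and fasted controls 3.00, 1.90 and 20.7 CPM. Fasted controls were all higher, and again library 25 stood out. The change was 3.55 ± 0.82 (adjusted p = 0.00355), falling to 1.79 without library 25 (adjusted p = 0.0493). Fed M-p110βKO were at 0.153, 0.570, 1.21 and 0.408 CPM and fasted M-p110βKO at 2.86, 0.369, 1.72 and 1.42 CPM. The groups overlapped, and the change of 1.34 ± 0.92 missed the threshold (adjusted p = 0.26). For the p110α line, fed controls ran from 0.756 to 14.2 CPM and fasted controls from 0.266 to 7.60 CPM, fed M-p110αKO from 0.450 to 32.6 CPM and fasted M-p110αKO from 0.769 to 2.11 CPM. The change in M-p110αKO was -2.92 ± 1.23 (adjusted p = 0.0974), with overlapping groups.

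Jun, the core AP-1 subunit, changed little in size but with small spread. Fed controls of the p110β line were at 74.8, 63.1 and 67.8 CPM and fasted controls at 102, 108 and 163 CPM. Fed M-p110βKO lay at 70.4, 64.0, 73.5 and 65.8 CPM and fasted M-p110βKO at 131, 75.3, 123 and 132 CPM. Fasted libraries were above all fed ones in both genotypes, with library 27 the lowest of the fasted knockouts. The rises were 0.86 ± 0.19 in controls (1.82-fold, adjusted p = 0.00254) and 0.75 ± 0.17 in M-p110βKO (1.68-fold, adjusted p = 0.00161), and no single library removed either. In the p110α line the means were 87.4 ± 11.7 CPM in fed and 90.6 ± 10.3 CPM in fasted controls (SD, n = 4 each), and 83.1 ± 27.8 and 82.2 ± 12.0 CPM in fed (n = 4) and fasted (n = 3) M-p110αKO. Changes with fasting there were 0.05 ± 0.17 and -0.01 ± 0.18, with 95% intervals of -0.29 to 0.38 and -0.37 to 0.35.

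Junb, a JUN relative that can restrain AP-1, had these fasting responses in the 4 settings, 0.78 ± 0.35 and 0.95 ± 0.37 in controls and knockouts of the p110α line and 0.84 ± 0.37 and 0.84 ± 0.32 in those of the p110β line. Of these only M-p110βKO passed the threshold (adjusted p = 0.0429), with fed values of 4.30, 5.13, 4.58 and 5.99 CPM and fasted values of 5.08, 17.0, 8.45 and 4.73 CPM. These groups overlapped, and the call rested on library 27, without which the change was 0.30 (adjusted p = 0.341). It was also lost without library 19, 20, 21, 22 or 28. Controls of the p110β line did not overlap, at 3.14, 4.89 and 5.88 CPM fed and 7.74, 8.63 and 8.33 CPM fasted, but their adjusted p was 0.0982. Controls of the p110α line had 5.08, 6.08, 8.96 and 3.25 CPM fed and 11.3, 7.22, 11.7 and 8.68 CPM fasted, overlapping groups (adjusted p = 0.0972) that passed without library 3 (1.03, adjusted p = 0.042). M-p110αKO had 10.3, 4.76, 1.91 and 5.16 CPM fed and 8.55, 11.3 and 11.9 CPM fasted (adjusted p = 0.0729). Over all 29 mice, as the mean of the 4 fasting differences, Junb rose by 0.85 ± 0.19 (adjusted p = 0.000403). This average passed for 4 of the 10, upward in each, where 55.2% of all genes passed and 27.2% passed upward. The other 3 were Fos at 1.28 ± 0.35 (adjusted p = 0.00242), Jun at 0.41 ± 0.10 (adjusted p = 0.000559) and Nr4a3 at 1.89 ± 0.28 (adjusted p = 1.63e-06). Atf3 passed without library 5 (1.79, adjusted p = 0.00149), Nr4a2 without library 1 or 5 (0.67 and 0.65) and Nr4a1 without library 4, 13, 25 or 27 (-0.26 to -0.30). The medians were 0.43 for the 10 and -0.02 for all genes.

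Egr1, the zinc-finger factor induced by growth factors and contraction, rose in both genotypes of the p110β line. Fed controls held 6.04, 3.38 and 4.44 CPM and fasted controls 12.4, 11.9 and 25.7 CPM. Fed M-p110βKO held 4.76, 3.28, 4.98 and 2.58 CPM and fasted M-p110βKO 10.2, 6.88, 19.0 and 12.3 CPM. Neither pair of groups overlapped. The rises were 1.83 ± 0.36 (3.55-fold, adjusted p = 0.00108) and 1.63 ± 0.33 (3.1-fold, adjusted p = 0.00084). Egr1 in fed controls of the p110α line was at 8.32, 23.5, 41.1 and 9.75 CPM, in fasted controls at 15.3, 16.2, 2.26 and 20.6 CPM, in fed M-p110αKO at 66.9, 23.7, 6.98 and 21.3 CPM and in fasted M-p110αKO at 12.3, 4.34 and 10.5 CPM. Fed and fasted mice overlapped, with changes of -0.53 ± 0.61 (adjusted p = 0.553) and -1.70 ± 0.70 (adjusted p = 0.0922).

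Atf3, induced by many kinds of cell stress, was set by a few libraries. In the p110β line fed controls were at 1.81, 0.506 and 1.2 CPM and fasted controls at 5.62, 4.70 and 40.2 CPM. All fasted controls were higher and library 25 was highest, and the rise of 3.75 ± 1.02 (adjusted p = 0.0106) lost its call without that library (2.06, adjusted p = 0.131). Fed M-p110βKO had 2.61, 2.14, 3.77 and 1.90 CPM and fasted M-p110βKO 1.75, 4.67, 32.1 and 4.58 CPM, overlapping groups whose change of 2.07 ± 0.81 had an adjusted p of 0.0518. It passed without library 26, 27 or 29 (2.32 to 2.41). Single libraries of the p110α line again stood apart. Fed controls were at 10.1, 8.87, 1.95 and 2.02 CPM, fasted controls at 6.93, 28.0, 3.19 and 3.35 CPM, fed M-p110αKO at 105, 4.01, 6.19 and 2.67 CPM and fasted M-p110αKO at 6.45, 3.95 and 7.08 CPM. Library 5, the fed M-p110αKO at 105 CPM, held 836 reads of Atf3.

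Ier2 did not pass in any comparison. Its group means lay between 4.30 ± 0.658 CPM in fasted M-p110αKO (SD, n = 3) and 8.65 ± 1.66 CPM in fasted M-p110βKO (SD, n = 4), and neighbouring groups in the order of means overlapped throughout.

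Of the NR4A genes, Nr4a3 (encoding NOR1) rose most. In the p110β line fed controls had 3.02, 4.73 and 4.68 CPM and fasted controls 26.9, 23.5 and 130 CPM. Fed M-p110βKO had 4.76, 8.83, 4.84 and 6.53 CPM and fasted M-p110βKO 43.7, 47.7, 42.2 and 41.2 CPM. All 7 fasted mice were above all 7 fed ones, and the fasted knockouts were close together while library 25 held most of the spread among controls. The rises were 3.87 ± 0.53 in controls (14.6-fold, adjusted p = 3.26e-05), or 2.63 without library 25 (adjusted p = 1.06e-07), and 2.80 ± 0.43 in M-p110βKO (6.98-fold, adjusted p = 6.98e-05). Fed controls of the p110α line were at 15.6, 13.8, 14.2 and 12.6 CPM and fasted controls at 26.7, 17.3, 22.9 and 13.9 CPM. Fed M-p110αKO ran over 62.4, 12.2, 32.5 and 6.85 CPM and fasted M-p110αKO over 64.0, 24.9 and 19.1 CPM. Fed and fasted libraries overlapped in both genotypes, with changes of 0.51 ± 0.50 (adjusted p = 0.468) and 0.37 ± 0.51 (adjusted p = 0.647).

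Nr4a1 (encoding NUR77), a factor that raises glycolytic and glucose-uptake genes in muscle, went down with fasting in controls of the p110α line. Fed controls of that line had 543, 585, 696 and 333 CPM and fasted controls 304, 272, 279 and 274 CPM. The groups did not overlap, as for 14.2% of all genes in that direction, and fasted controls were close together. Nr4a1 fell by 0.94 ± 0.23 on the log2 scale (a ratio of 0.521, adjusted p = 0.00515), and the call held without any single library of the 8 left out in turn (adjusted p from 0.00111 to 0.0206). Fed M-p110αKO were at 548, 412, 329 and 317 CPM and fasted M-p110αKO at 366, 249 and 159 CPM, overlapping groups with a change of -0.63 ± 0.25 (adjusted p = 0.0789). In the p110β line fed controls were at 279, 336 and 311 CPM and fasted controls at 316, 303 and 507 CPM, and fed M-p110βKO at 266, 275, 262 and 253 CPM and fasted M-p110βKO at 246, 501, 372 and 291 CPM. Both pairs overlapped, and the changes were 0.29 ± 0.21 (adjusted p = 0.323) and 0.42 ± 0.18 (adjusted p = 0.0793). The latter passed without library 26 (0.57, adjusted p = 0.0202).

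Nr4a2 (encoding NURR1) was scarce, with group means of 1.12 to 4.43 CPM. Its highest group was fasted M-p110αKO, at 3.97, 4.87 and 4.46 CPM, and the fasted controls of that line were at 3.21, 1.71, 1.73 and 2.96 CPM. The fasted knockouts were all above these controls, as for 9.21% of all genes. The difference of 0.88 ± 0.54 had an adjusted p of 0.36. Fed controls of that line were at 3.78, 1.65, 0.974 and 0.264 CPM and fed M-p110αKO at 4.28, 1.49, 0.675 and 0.979 CPM, both overlapping the fasted groups. For the p110β line, fed controls were at 1.33, 0.844 and 1.2 CPM and fasted controls at 2.37, 1.78 and 1.58 CPM. Every fasted control was higher, but the change of 0.75 ± 0.49 had an adjusted p of 0.276. Fed M-p110βKO were at 3.99, 1.57, 3.36 and 1.36 CPM and fasted M-p110βKO at 1.75, 2.34, 1.32 and 0.473 CPM, with a change of -0.76 ± 0.40 (adjusted p = 0.138).

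The second question was whether loss of p110α or p110β changed these genes. These comparisons use the same libraries as the fasting responses and are not independent of them. For p110α, 0 of the 10 passed in fed mice, where 0.611% of all genes passed, and 0 of 10 in fasted mice, where 6.52% passed. At an unadjusted p under 0.05, a cut for which the share of all genes is not given, there was 1 in fed mice (Atf3) and 0 in fasted mice. DESeq2 and limma-voom called 0 in both. With no filter beyond 1 read, however, edgeR called some of the 10 in both states, as given in the last section without the share of all genes. Medians of the 10 were 0.29 fed and -0.13 fasted, against 0.00 and 0.00 over all genes. The highest estimate in fed mice was that of Atf3, 2.30 ± 0.99 (adjusted p = 0.373), which rests on library 5. Nr4a1 differed by -0.43 ± 0.23 in fed M-p110αKO, with a 95% interval of -0.88 to 0.02 (adjusted p = 0.486). Jun, with the narrowest intervals of the 10, differed by -0.08 (95% interval -0.41 to 0.26) in fed and -0.13 (-0.49 to 0.23) in fasted mice.

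For p110β, 0 of the 10 passed in fed mice, where 0% of all genes passed, with 1 at an unadjusted p under 0.05 (Nr4a2, 1.15 ± 0.45, adjusted p = 0.47) and 0 by DESeq2 or limma-voom. Atf3, Nr4a2 and Nr4a3 were higher and Nr4a1 was lower in every fed M-p110βKO than in every fed control, 4 of the 10, as for 9.8% of all genes. In fasted mice 0 of 10 passed, where 0.89% of all genes passed, with 2 at an unadjusted p under 0.05 and 0 by DESeq2 or limma-voom. Those 2 were Fos, at -2.02 ± 0.48 (adjusted p = 0.0504), and Fosb, at -2.43 ± 0.66 (adjusted p = 0.104). The share of all genes at an unadjusted p is not given for fed or fasted mice. Some of the 10 passed in fasted mice when edgeR used no filter beyond 1 read, as given in the last section. The share of all genes in that fit is not given. Fos was at 5.21 to 26.4 CPM in fasted M-p110βKO and at 21.1 to 93.8 CPM in fasted controls, and only library 28 of the knockouts reached into the range of the controls. Fos passed without library 28 (-2.88, adjusted p = 0.0116) or library 24 (-2.37, adjusted p = 0.0406), and Fosb without library 24 (-2.92, adjusted p = 0.046). The interaction for Fos, the fasting response in M-p110βKO minus that in controls, was -1.83 ± 0.90 (adjusted p = 0.407). Nr4a3 depended on library 25, since it differed by -0.45 ± 0.39 with it (adjusted p = 0.67) and by 0.81 without it (adjusted p = 0.0119). Without libraries 23 and 24, which leaves library 25 as the 1 fasted control, it differed by -1.57 (adjusted p = 0.00072), so that a call in either direction could be had from the choice of libraries. Medians of the 10 were 0.06 fed and -0.40 fasted, against 0.01 and 0.00 over all genes.

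The third question was whether the lines themselves differed, which was tested in a fit of all 29 libraries. In fed controls Egr1 and Nr4a1 were lower in the p110β line, 2 of the 10 where 20.3% of all genes passed and 10.9% passed downward. Egr1 differed by -2.07 ± 0.66 (adjusted p = 0.0267) and Nr4a1 by -0.80 ± 0.25 (adjusted p = 0.0221). The call of Egr1 was lost without any of libraries 2, 3, 16, 17 and 18 (from -1.54 to -2.33), and that of Nr4a1 without library 3 (-0.66, adjusted p = 0.0796) or 16 (-0.75, adjusted p = 0.0855). Fos and Nr4a3 were also lower in every fed control of the p110β line, with adjusted p of 0.0745 and 0.059, as were Jun and Atf3, so that 5 of the 10 with Egr1 did not overlap, against 15.2% of all genes in that direction. DESeq2 called 5 of the 10 and limma-voom 1. Markers of vessel cells differed in the same comparison, with 5 of 8 endothelial markers and 4 of 7 smooth muscle and pericyte markers higher in the p110β line and 0 lower. The endothelial markers summed to 459.6 to 613.8 CPM in fed controls of the p110β line and to 321.8 to 401.6 CPM in those of the p110α line. In fasted controls the order turned for Fos, 2.14 ± 0.60 higher in the p110β line (adjusted p = 0.00744), and Nr4a3, 1.57 ± 0.50 higher (adjusted p = 0.0189), 2 of 10 where 30.3% of all genes passed and 14.7% passed upward. Without library 25 these were 1.13 (adjusted p = 0.175) and 0.33 (adjusted p = 0.655), and Nr4a3 was also lost without library 12 (1.43). Jun passed without library 23 (0.59, adjusted p = 0.0436). In fasted controls 6 of 6 adipocyte markers (median 3.47) and 4 of 4 Schwann cell markers tested (median 1.01) were higher in the p110β line as well. The part of these cells in the differences between lines was not tested. The medians of the 10 were -1.29 in fed and 0.43 in fasted controls, against 0.02 and 0.00 over all genes.

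The fasting response of controls differed between the lines for Fos, by 4.09 ± 0.98 on the log2 scale (adjusted p = 0.0272), and for Nr4a3, by 3.34 ± 0.83 (adjusted p = 0.0365), each more positive in the p110β line. In this test 1.56% of all genes passed and 0.933% passed upward, and limma-voom called 0 of the 10 and DESeq2 3. Without library 25 the differences were 3.10 (adjusted p = 0.0614) and 2.12 (adjusted p = 0.104). Fos was also lost without library 3 (3.44), 16 or 17, with adjusted p up to 0.0872, and Nr4a3 without library 1, 4, 10, 12, 16, 17 or 18, with adjusted p up to 0.11. In knockouts, a comparison added after seeing the data, the difference passed for 3 of the 10, where 10.7% of all genes passed and 5.63% passed upward. These were Egr1 at 3.34 ± 0.88 (adjusted p = 0.0145), Nr4a1 at 1.05 ± 0.34 (adjusted p = 0.0409) and Nr4a3 at 2.43 ± 0.75 (adjusted p = 0.0357). Nr4a3 there dropped to 1.71 without library 5 (adjusted p = 0.119), and was 3.16 without library 13 (adjusted p = 0.011). The call of Nr4a3 was also lost without library 7, 14, 15, 19, 21, 22 or 26, and that of Nr4a1 without library 5, 6, 14, 15, 19, 20, 21, 22, 27 or 28. Egr1 kept an adjusted p of at most 0.0485 in each of these fits, with 2.57 as its value without library 5. By limma-voom, however, Egr1 (adjusted p = 0.0733) and Nr4a3 (adjusted p = 0.0938) did not pass in knockouts, and Nr4a2 did, at -2.41 (adjusted p = 0.0391).

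With both genotypes averaged, 7 of the 10 had a more positive fasting response in the p110β line and none a more negative one, where 9.19% of all genes passed and 4.51% passed upward. This comparison was added after seeing the data and is the mean of those in controls and knockouts, so it is not independent of them. Nr4a3 (2.89 ± 0.56, adjusted p = 0.00141), Fos (3.30 ± 0.69, adjusted p = 0.00276), Nr4a1 (1.13 ± 0.24, adjusted p = 0.00308), Egr1 (2.84 ± 0.62, adjusted p = 0.00395) and Jun (0.78 ± 0.19, adjusted p = 0.00918) passed in each fit that left out 1 library. Fosb (4.27 ± 1.23, adjusted p = 0.0252) and Atf3 (3.63 ± 1.17, adjusted p = 0.0477) did not, Fosb falling to 3.41 without library 25 (adjusted p = 0.0738) and 4.06 without library 26, and Atf3 to 2.25 without library 5 (adjusted p = 0.128), 2.80 without library 25 (adjusted p = 0.138) and 2.85 without library 28 (adjusted p = 0.127). Atf3 was lost without any of 18 of the 29 libraries and with limma-voom (adjusted p = 0.352), as Fosb was with limma-voom (adjusted p = 0.27). Nr4a3 was 2.28 without library 25 (adjusted p = 0.00273). Junb showed a difference of -0.03 ± 0.39, with a 95% interval of -0.79 to 0.72. The median of the 10 was 1.99 and that of all genes 0. The lines also differ in genetic background, as given above, and no fit separates the 2.

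**Figure D4:**
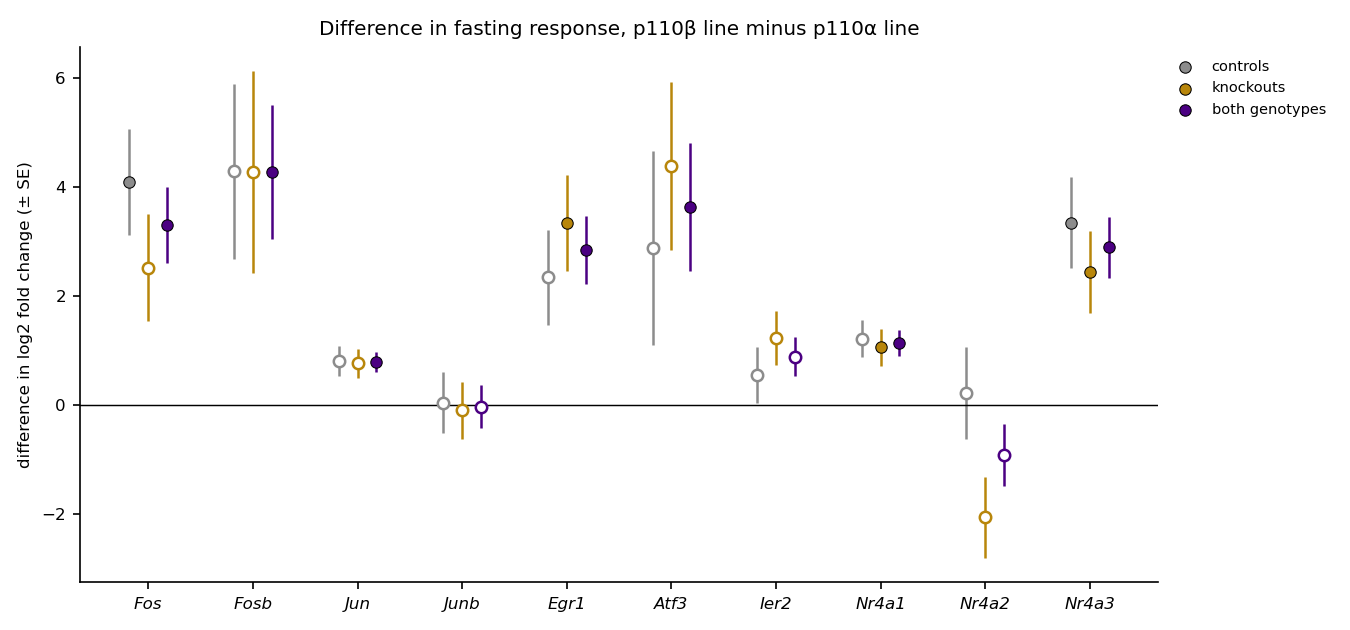
Fasting response in the p110β line minus that in the p110α line, as a difference in log2 fold change with its SE, for controls, knockouts and the mean of both; filled points passed an adjusted p of 0.05. With both genotypes averaged, 7 genes lie above 0 with filled points, and Junb lies at -0.03.

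The genes differed in how much they varied from mouse to mouse within a group. The within-group SD of log2 CPM was 1.52 for Fosb and 1.44 for Atf3, both at the 99.9th percentile of the 12760 genes tested. It was 0.94 for Fos and for Egr1 (99.3rd percentile), 0.78 for Nr4a3 (98.6th) and 0.75 for Nr4a2 (98.4th). Jun, at 0.28, was at the 57.6th percentile and Nr4a1, at 0.36, at the 72.8th. The median SD of the 1000 genes nearest in level was 0.43 for Fosb and Nr4a2, 0.30 for Atf3, 0.28 for Junb and Ier2, 0.25 for Fos, 0.24 for Egr1, 0.20 for Nr4a3 and 0.16 for Jun and Nr4a1, below the SD of the gene itself in each case. In library 5, a fed M-p110αKO, all 10 genes were above their group mean, Atf3 by 3.46 and Fosb by 2.80 on the log2 scale and Nr4a1 least, by 0.48. In library 25, a fasted control of the p110β line, Fosb was above its group mean by 1.99, Atf3 by 1.94, Nr4a3 by 1.57 and Fos by 1.35, while Nr4a2 was below it by -0.22.

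Deviations from the group means were compared between genes over the 29 libraries. Of 45 pairs, 43 had a Pearson r above 0, with a median of 0.41. The like share for other genes was not computed, so these counts are not read as particular to the 10. A single pair passed the adjustment over the 45, Fosb with Egr1, with r = 0.83 (permutation p = 8e-05, adjusted p = 0.0036), rho = 0.77 (permutation p = 0.00024, adjusted p = 0.0108) and r = 0.76 without the 2 libraries farthest from the median. Within the p110α line alone (15 libraries) the median r was 0.47, and Fosb with Egr1 had r = 0.88 (permutation, adjusted p = 0.0328). Fos with Junb (r = 0.86) and Junb with Ier2 (r = 0.90) also passed there, each with a permutation adjusted p of 0.0363, but 0 pairs passed by rho. Within the p110β line alone (14 libraries) the median r was 0.27 and 0 of 45 pairs passed, with r = 0.64 for Fosb with Egr1 (permutation, adjusted p = 0.267). In that line 36 pairs had an r above 0 and the lowest was -0.71, for Jun with Junb, while in the p110α line 44 pairs were above 0.

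**Figure D5:**
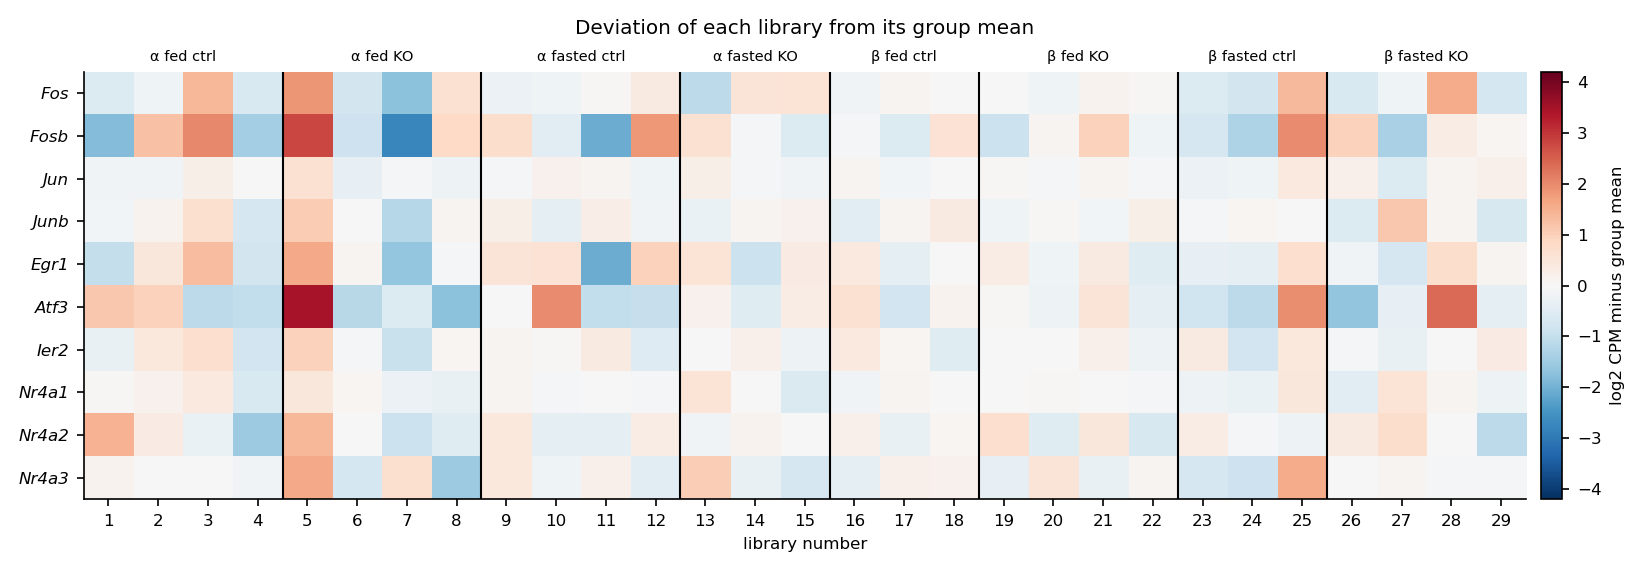
Deviation of each library (columns, numbered as in the labels and parted by group) from its group mean of log2 CPM for each gene (rows); red is above and blue below the group mean. Library 5 is red in all rows, most in Atf3 at 3.46. Library 25 is above its group mean in 9 of them, from Fosb at 1.99 down to Junb at 0.02, which is close to no deviation.

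By the correlation of log2 CPM over all 29 libraries, given as a description since the libraries share groups, the 2 genes most like each member were named. For Fos these were Abra (r = 0.86), which encodes an activator of serum response factor signaling in striated muscle, and Ier5 (r = 0.76), and for Atf3 they were Xirp1 (r = 0.86), a repair protein of muscle fibers, and Otud1 (r = 0.77). Nr4a3 was most like Cry2 (r = 0.83), a repressor of the circadian clock, and Sorbs3 (r = 0.83). Nr4a1 was most like Wee1 (r = 0.74) and Dusp1 (r = 0.72). Fosb and Egr1 headed each other's lists (r = 0.87), followed by Samd9l (r = 0.80) for Fosb and Glns-ps1 (r = 0.76) for Egr1. Jun was most like Slc39a14 (r = 0.81) and Mapk1ip1 (r = 0.80), Junb like Map3k2 (r = 0.76) and Ubn2 (r = 0.75), Ier2 like Gm43813 (r = 0.70) and Eif2s2 (r = 0.66), and Nr4a2 like Ctdsp2 (r = 0.73) and Fosl2 (r = 0.72).

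Other genes of the pathway were read against the shares of all genes that passed with fasting. These were 15.4% upward and 14.7% downward in controls of the p110α line, 11.6% and 9.91% in M-p110αKO, 14.5% and 12.4% in controls of the p110β line, and 19% and 18.9% in M-p110βKO. Of 26 other early response genes tested, 15 rose and 0 fell in controls of the p110β line (median 1.04 against -0.02 over all genes), and 12 rose and 4 fell in M-p110βKO (median 0.55). In the p110α line 10 rose and 3 fell in controls (median 0.05) and 5 rose and 2 fell in M-p110αKO (median 0.27). Cebpd, a C/EBP factor of the glucocorticoid and inflammatory response, rose in all 4 settings, by 1.33 ± 0.19 and 1.49 ± 0.20 in the p110α line and 3.11 ± 0.41 and 2.21 ± 0.34 in the p110β line (controls, then knockouts). In fed controls Cebpd stood at 56.9 ± 15.2 CPM in the p110α line (SD, n = 4) and 18.9 ± 4.72 CPM in the p110β line (SD, n = 3). Csrnp1 (1.84 ± 0.25), Ier3 (1.64 ± 0.23) and Ccn1 (1.12 ± 0.17) rose in controls of the p110β line, and Klf10 (1.49 ± 0.24) and Btg1 (0.74 ± 0.16) rose and Hbegf (-1.26 ± 0.27), an EGF receptor ligand, fell in controls of the p110α line.

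Among AP-1 and ATF partners, 5 of 9 tested rose and 0 fell in controls of the p110α line, 4 of 9 and 0 in M-p110αKO, 4 of 10 and 0 in controls of the p110β line, and 4 of 10 rose and 1 fell in M-p110βKO. Over all genes 30.1%, 21.5%, 26.9% and 37.9% passed in either direction in these 4 settings. The small MAF factors, which lack an activation domain, rose in all 4 settings. Maff changed by 2.22 ± 0.28 and 1.05 ± 0.29 in controls and knockouts of the p110α line and by 2.69 ± 0.30 and 2.57 ± 0.27 in those of the p110β line. Its mean went from 3.90 ± 0.651 to 25.2 ± 6.65 CPM in controls of the p110β line (SD, n = 3 each). Mafk rose by 1.06 to 1.66 and Mafg by 0.36 to 1.12 over the 4 settings.

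Of the 8 MAP kinase phosphatases tested, which switch off the kinases that induce immediate early genes, 1 rose and 2 fell in controls and 1 rose and 1 fell in knockouts of the p110α line, and 3 rose and 2 fell in controls and 2 rose and 3 fell in knockouts of the p110β line. Dusp1, itself an immediate early gene, fell in the p110α line, with -1.33 ± 0.22 in controls and -0.86 ± 0.23 in M-p110αKO. In controls of the p110β line Dusp1 rose by 0.63 ± 0.20 (adjusted p = 0.023), from 81.6 ± 3.65 to 126 ± 38.3 CPM (SD, n = 3 each). Dusp4 rose in all 4 settings, by 1.58, 2.40, 1.89 and 1.83 in the order above.

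Of 16 SRF, ternary complex and CREB factors, 6 rose and 3 fell in controls and 5 rose and 2 fell in knockouts of the p110α line, and 2 rose and 3 fell in controls and 4 rose and 5 fell in knockouts of the p110β line. Mrtfa, the actin-sensing coactivator of serum response factor, fell in all 4 settings, with changes of -2.03 ± 0.28 and -1.55 ± 0.31 in controls and knockouts of the p110α line and -2.05 ± 0.21 and -2.47 ± 0.17 in those of the p110β line. Srf itself changed by -0.82 ± 0.12 in p110α line controls. It changed by -0.55 ± 0.13 in p110β line controls and by -0.48 ± 0.11 in M-p110βKO. Of 24 MAP kinase and calcium kinase genes, 2 rose and 8 fell in controls and 2 rose and 5 fell in knockouts of the p110α line, and 1 rose and 7 fell in controls and 5 rose and 6 fell in knockouts of the p110β line. The shares of all genes in either direction were 30.1% and 21.5% in the p110α line and 26.9% and 37.9% in the p110β line. Map2k6, a kinase upstream of p38, fell, with -1.17 and -1.27 in controls and knockouts of the p110α line and -1.42 and -1.02 in those of the p110β line.

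Of 11 co-regulators and RXR partners of NR4A proteins, 2 rose and 2 fell in controls and 2 rose and 1 fell in knockouts of the p110α line, and 2 rose and 1 fell in controls and 3 rose and 3 fell in knockouts of the p110β line. Those counts, 4, 3, 3 and 6 of 11, stood beside 30.1%, 21.5%, 26.9% and 37.9% of all genes. Rxrg, the muscle-enriched retinoid X receptor, fell in all 4 settings, at -1.31, -1.16, -1.07 and -1.11 in the same order. Of 12 metabolic genes of muscle known to respond to NR4A proteins, 3 rose and 4 fell in controls and 3 rose and 3 fell in knockouts of the p110α line, and 6 rose and 2 fell in controls and 6 rose and 4 fell in knockouts of the p110β line. Prkag3, the AMPK subunit of glycolytic muscle, fell as well, with -2.08 ± 0.22 and -1.66 ± 0.24 in the p110α line and -2.93 ± 0.21 and -2.65 ± 0.18 in the p110β line. Lpin1, which makes diacylglycerol and coactivates fat oxidation genes, rose by 1.08, 0.85, 1.30 and 1.43. The fasting response of these lists was also tested between the lines. Of 27 other early response genes it was more positive in the p110β line for 5 and less for 0 in controls, 3 and 2 in knockouts, and 8 and 1 over both genotypes. For the 12 metabolic genes the counts were 2 and 0, 3 and 1, and 4 and 1, and for 10 AP-1 and ATF partners 1 and 0, 1 and 1, and 2 and 0. Of 8 MAP kinase phosphatases 1 and 0, 1 and 1, and 2 and 1 passed, and of 10 acute heat shock genes 1 and 0, 2 and 0, and 3 and 0. Of 16 SRF, ternary complex and CREB factors 0 and 0, 0 and 2, and 0 and 2 passed, of 24 kinase genes 0 and 0, 2 and 1, and 1 and 1, and of 11 co-regulators and RXR partners 0 and 0, 0 and 0, and 1 and 0. Over all genes 1.56%, 10.7% and 9.19% passed in either direction.

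Of 10 acute heat shock genes, 0 passed in controls of the p110α line and 2 fell in M-p110αKO, while in controls of the p110β line 3 rose and 0 fell, Hspa1a by 1.19 ± 0.39, Bag3 by 0.85 ± 0.11 and Dnajb1 by 0.85 ± 0.21. In M-p110βKO 3 rose and Dnajb1 fell by 0.68 ± 0.18.

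Markers of other cells moved with some of these groups. In whole muscle, fewer cells of a type and less RNA per cell cannot be told apart. The summed level of 6 adipocyte markers was 119 to 137 CPM in fed controls of the p110β line, 114 to 156 in fed M-p110βKO and 127 to 192 in fasted M-p110βKO, but 385, 421 and 172 CPM in fasted control libraries 23, 24 and 25. All 4 adipocyte markers tested rose with fasting in these controls, where Adipoq and Plin1 were at 0 in at least 1 fed control. Library 25, with the highest Fos, Fosb, Egr1, Atf3 and Nr4a3 of its group, had the lowest adipocyte sum of its group. In the p110α line the sums were 89.98 to 125 CPM in fed and 154 to 174 in fasted controls, and 116 to 140 in fed and 142 to 207 in fasted M-p110αKO. The 9 muscle fiber markers summed to 136700 to 193400 CPM over all groups and none was at 0. With fasting, 5 of the 9 fell and 0 rose in controls of the p110α line, and 2 fell and 0 rose in M-p110αKO. In the p110β line 3 fell and 1 rose in controls, and 5 fell and 0 rose in M-p110βKO. Over all genes 14.7%, 9.91%, 12.4% and 18.9% fell in these 4 settings.

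The 8 macrophage markers summed to 13.3 to 17.9 CPM in fed and 11.2 to 18.7 CPM in fasted controls of the p110β line, and to 15.4 to 28.7 in fed and 8.85 to 10.4 in fasted M-p110βKO, where 5 of 5 tested fell with fasting. The 7 fibroblast markers summed to 359 to 442 CPM in fed and 308 to 326 in fasted controls of that line, and to 378 to 559 in fed and 156 to 231 in fasted M-p110βKO, where 7 of 7 fell. Fos, Jun, Junb, Egr1 and Nr4a3 rose with fasting in M-p110βKO, and how these cells bear on that was not tested. Macrophage sums of the p110α line were 10.5 to 16.8 CPM in fed and 18.5 to 41.9 in fasted controls, and 12.3 to 22.6 in fed and 8.68 to 33.7 in fasted M-p110αKO. With fasting in the p110β line, 0 of 8 endothelial markers passed in controls and 2 fell in M-p110βKO, and of 7 smooth muscle and pericyte markers 0 passed in controls and 1 rose and 1 fell in M-p110βKO. Schwann cell markers, 6 in all, summed to 89.7 to 134 CPM in fed and 132 to 157 in fasted controls of the p110β line, and to 66.03 to 80.2 in fed and 55.5 to 122 in fasted controls of the p110α line. Neutrophil markers summed to at most 1.75 CPM in any library, with up to 5 of the 6 at 0. In library 5 the erythrocyte sum was 43.6 CPM, the highest of the fed M-p110αKO, and the macrophage sum 12.3 CPM, the lowest. The part of these cells in the values above was not tested.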

How the data were processed

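Total RNA from skeletal muscle was extracted with Trizol, made into mRNA libraries and sequenced, and the authors aligned the reads to GRCm38 with STAR and counted them per Ensembl gene with featureCounts of Subread (no source here gives versions, annotation release or strand setting). The deposited table holds raw counts of 48023 genes in 29 libraries. Symbols came from GENCODE M21 for 47224 genes, and the other 799 held 0.0353% of the counts.

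Groups were taken from the labels. Each line was fitted alone, with 1 coefficient per group of feeding state and genotype, in edgeR 4.0.16 (R 4.3.3) with TMM factors, filterByExpr (minimum count 10, minimum total 15), the quasi-likelihood F test and Benjamini-Hochberg adjustment over all genes tested (12433 in the p110α line, 12249 in the p110β line), at a threshold of 0.05. Differences between lines came from a fit of all 29 libraries (12760 genes). SE is the log2 fold change divided by the square root of F, and 95% intervals are 1.96 SE. Levels per kilobase use the length of the union of exons. Correlations used log2 CPM (prior count 2) less the group mean and 100000 permutations of libraries within groups, two-sided. Promoter windows are those of RefSeq on GRCm38.p6. The scripts were tested on simulated data.

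The 10 genes and the gene lists were chosen with earlier results of these data known. Named in the text are the 10 genes, the called genes of each list (at most 4 per comparison, by adjusted p) and the 2 genes most correlated with each of the 10. Alternatives were DESeq2 1.42.0, limma-voom (limma 3.58.1), other normalization factors, no filter, GC and length offsets, other sets of libraries in the fit, and leaving out single libraries. The fasting difference between lines in knockouts and over both genotypes, and the fits without libraries 5 and 25 or 23 and 24, were added after seeing the data.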

Additional observations from a re-analysis of the deposited data

Results flagged for a closer look

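In groups of 4 libraries, a library was marked when its gap to the nearest other exceeded the 0.829 share of the group's range that Dixon's test allows. Of 50 such groups of the 10 genes, 6 held one. The test marks about 1 in 20 groups by chance when groups are separate and values are normally spread. These groups share libraries and their CPM were not put on a log scale, so the 6 are not read as an excess. The share of groups marked over all genes was not computed. Fos stood at 29.0 CPM in library 3, a fed control of the p110α line, against 6.94 to 9.63 in the other 3. Fos in library 28, a fasted M-p110βKO, was at 26.4 CPM against 5.21 to 7.74, and Atf3 in the same library at 32.1 CPM against 1.75 to 4.67. Jun in library 27 of that group was low, at 75.3 CPM against 123 to 132. Atf3 was at 105 CPM in library 5, a fed M-p110αKO, against 2.67 to 6.19, and at 28.0 CPM in library 10, a fasted control of the p110α line, against 3.19 to 6.93.

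The fasting response differed between the lines, p110β minus p110α, by a test of the difference itself for 12 values. In controls it was 4.09 for Fos and 3.34 for Nr4a3 on the log2 scale. In knockouts it was 3.34 for Egr1, 1.05 for Nr4a1 and 2.43 for Nr4a3. Over both genotypes it was 3.30 for Fos, 4.27 for Fosb, 0.78 for Jun, 2.84 for Egr1, 3.63 for Atf3, 1.13 for Nr4a1 and 2.89 for Nr4a3. Line and genetic background cannot be told apart here. The comparisons in knockouts and over both genotypes were added after seeing the data. The one over both genotypes is the mean of those in controls and knockouts, so the 12 values are not separate results.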

How the results depend on the processing

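Of 3227 values of single genes under the alternatives, 3006 kept their side of the threshold, 92 lost the call and 127 gained it. For values that passed in neither the main fit nor the alternative, a change of sign was not counted. The other 2 passed with the sign turned. The 2 were both Nr4a3 in fasted M-p110βKO against controls, at -0.45 with all libraries and 0.81 without library 25, and likewise 0.81 without libraries 5 and 25 (leaving out 1 library each gave -0.84, without library 24, to 0.81). It was -1.57 (adjusted p = 0.00072) without libraries 23 and 24. Of 327 counts of called genes or of correlated pairs, 64 moved, either by over 1.5 times or away from a main count of 0. The share of all genes called is not given for any alternative, DESeq2 and limma-voom included. Counts under the alternatives, here and above, are therefore not read as particular to the genes described. With no filter beyond 1 read, the counts were 5 (fed M-p110αKO against controls), 4 (fasted M-p110αKO), 6 and 8 (fasting in controls and knockouts of the p110α line), 3 (interaction there), 2 (fasted M-p110βKO), 8 (fasting in M-p110βKO), 4 (interaction there), 7 (fasting over all mice), 6 and 6 (fed and fasted controls between lines), 7 and 9 (fasting between lines in controls and knockouts). DESeq2 gave 1 (fasting in M-p110αKO), 5 (fed controls between lines) and 6 (fasting between lines in knockouts), and limma-voom gave 2 (fasting in M-p110αKO), 3 (fasting in M-p110βKO), 1 and 1 (fed and fasted controls between lines) and 0 (fasting between lines in controls). GC and length offsets gave 2 (fasting in controls of the p110α line) and 1 (fasted M-p110βKO). Fitting only the groups compared gave 2 (fasting in controls of the p110α line) and 5 (fed controls between lines), DESeq2 size factors 1 (fasted M-p110βKO), and all 29 libraries in 1 fit 1 (fasting in M-p110αKO). Without libraries 5 and 25 the counts were 2 (fasting in M-p110αKO), 1 (fasted M-p110βKO) and 0 (fasted controls between lines), and without libraries 23 and 24 they were 3 (fasted M-p110βKO) and 1 (interaction in the p110β line). Pairs of genes that correlated numbered 3 in the p110α line alone and 0 in the p110β line alone. The cause was not tested, except that fewer libraries entered some fits. Leaving out 1 library each gave 0 to 0 for both p110α knockout comparisons, both interactions and fed M-p110βKO, 1 to 2 and 0 to 3 for fasting in controls and knockouts of the p110α line, 0 to 2 for fasted M-p110βKO, 5 to 6 and 3 to 7 for fasting in controls and knockouts of the p110β line, 4 to 6 over all mice, 0 to 2 and 0 to 3 for fed and fasted controls between lines, and 0 to 2, 1 to 5 and 5 to 7 for fasting between lines in controls, in knockouts and over both. No paired analysis was possible because the groups share no replicate numbers. Depth limits Fosb, Nr4a2 and Atf3, with as few as 1, 3 and 3 reads in a library.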
